A study of Mus musculus with 12 samples.

Results

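Accessible promoter regions called in most of 5 selecting libraries of hernia-associated fibroblasts (HAFs) were characterized across 12 ATAC-seq libraries. ATAC-seq inserts sequencing adapters into open DNA with a transposase, so a peak of reads marks an accessible site. The promoter regions were chosen on 5 libraries, namely vehicle replicates 1 and 3 and replicate 1 of E2, of E2 plus fulvestrant and of fulvestrant. Peaks of these 5 libraries with a q-value of 0.05 or less, a −log10 q of at least 1.30103, were merged into 63686 regions on the autosomes and the X chromosome. Of these, 11288 (17.7%) held such a peak in at least 4 of the 5 libraries, and 591 of the 11288 were removed because all 12 lists had a peak there. A midpoint within 3000 bp of a GENCODE M21 transcript start made 7798 of the remaining 10697 (72.9%) the reproducible promoter regions described here, which is 12.2% of the 63686. The other 2899 were distal, with 1382 inside genes and 1517 between genes. Peaks of all 12 lists merged into 431930 regions. Calls and fold enrichments in the 5 selecting libraries fixed which regions entered, so they are given as a description. Tests were made only on the 7 remaining libraries. Calls in those 7 bore on membership only through the removal of regions with a peak in all 12 lists. By construction no region could be called in all 12 libraries or, in the 5 selecting ones, in fewer than 4.

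The cells were primary fibroblasts, labelled as skeletal muscle fibroblasts, of Aromhum mice, and all 12 libraries share this genotype. The methods of the study state that its mice were male. Per the methods of the study, Aromhum mice carry the human aromatase gene, so that muscle converts androgen to estrogen, and the cells came from the lower abdominal muscle, were passaged once, starved of serum overnight, and pretreated for 3 hours with fulvestrant or DMSO. Each of 4 treatments lasted 1 hour and had 3 libraries, with vehicle (ethanol and DMSO), estradiol (E2, 10 nM), E2 (10 nM) with fulvestrant (100 nM), or fulvestrant (100 nM), an antagonist that binds the estrogen receptor and leads to its degradation. The labels do not say whether replicates were separate cultures or mice, so p-values measure the spread between libraries, which may be technical. An accessible signal averages all cells of a culture, and fewer cells with an open promoter cannot be told apart from weaker opening in each cell.

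A promoter is the stretch of DNA around a transcript start where general transcription factors and RNA polymerase II assemble, and its nucleosome-depleted core is one of the most accessible kinds of chromatin in a cell. Many mammalian promoters lie in CpG islands, stretches rich in G, C and the CG dinucleotide, which are commonly open in many cell types and bound by factors such as SP1, NFY, NRF1 and YY1. Promoters of tissue-specific genes more often lack an island, and much of the difference between cell types lies in distal enhancers, where factors such as AP-1 and TEAD bind. Fibroblasts make collagens, fibronectin and other matrix proteins and carry the receptor PDGFRA.

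The sequences below show the kinds of DNA these regions were made of. Each is 120 bases of GRCm38, the sequence of build mm10, read 5′ to 3′ on the strand of the gene, and lies outside annotated exons. Capitals mark the motif words searched, on either strand, which are spelled out with their frequencies below. The first 5 are the bases just upstream of transcript starts at genes that recur in the results, 3 of broadly used genes (Hspa5, Eif5, Jun) and 2 of fibroblast genes (Col1a2, Twist1), chosen after their values were seen.
Hspa5 (chr2:34771850-34771969, plus strand): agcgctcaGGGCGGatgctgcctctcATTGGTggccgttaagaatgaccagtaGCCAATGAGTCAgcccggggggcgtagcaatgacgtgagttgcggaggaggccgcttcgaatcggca
Eif5 (chr12:111537896-111538015, plus strand): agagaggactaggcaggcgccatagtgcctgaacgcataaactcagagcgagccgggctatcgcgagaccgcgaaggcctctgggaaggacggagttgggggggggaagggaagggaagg
Jun (chr4:95052223-95052342, minus strand): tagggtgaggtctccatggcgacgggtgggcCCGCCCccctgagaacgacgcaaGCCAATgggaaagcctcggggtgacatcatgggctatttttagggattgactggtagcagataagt
Col1a2 (chr6:4505373-4505492, plus strand): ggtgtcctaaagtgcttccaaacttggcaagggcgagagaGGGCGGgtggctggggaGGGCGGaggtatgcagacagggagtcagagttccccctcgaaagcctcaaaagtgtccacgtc
Twist1 (chr12:33957551-33957670, plus strand): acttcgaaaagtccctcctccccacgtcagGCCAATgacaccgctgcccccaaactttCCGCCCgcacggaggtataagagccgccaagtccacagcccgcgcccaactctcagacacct
The next are upstream of Cnot4 and Dcaf1, the strongest regions of the 5 selecting libraries that no other library called.
Cnot4 (chr6:35133725-35133844, minus strand): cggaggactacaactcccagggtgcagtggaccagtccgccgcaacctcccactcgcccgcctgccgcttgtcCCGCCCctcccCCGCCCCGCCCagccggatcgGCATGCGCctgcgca
Dcaf1 (chr9:106821754-106821873, plus strand): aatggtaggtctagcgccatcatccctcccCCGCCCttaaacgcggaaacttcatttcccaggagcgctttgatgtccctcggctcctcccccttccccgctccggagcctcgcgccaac
The last 4 are centred on the summits of regions with a q-value of 0.05 or less in 6 or 7 of the 7 remaining libraries, the opposite end of the scale.
Gm39397 (chr11:103420892-103421011, plus strand): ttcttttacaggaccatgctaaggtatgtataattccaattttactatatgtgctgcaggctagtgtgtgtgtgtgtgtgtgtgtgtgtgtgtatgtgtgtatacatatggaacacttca
2900027M19Rik (chr8:9691572-9691691, minus strand): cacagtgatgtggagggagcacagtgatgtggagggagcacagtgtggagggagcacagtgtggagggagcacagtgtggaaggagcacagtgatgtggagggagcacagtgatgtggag
Rab3gap2 (chr1:185263902-185264021, plus strand): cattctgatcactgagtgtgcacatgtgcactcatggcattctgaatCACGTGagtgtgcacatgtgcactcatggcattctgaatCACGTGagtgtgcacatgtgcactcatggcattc
Dnah14 (chr1:181743366-181743485, plus strand): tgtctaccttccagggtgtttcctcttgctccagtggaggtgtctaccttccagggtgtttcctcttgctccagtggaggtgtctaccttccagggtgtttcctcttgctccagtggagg
The upstream windows held from 5 (Col1a2) to 13 (Cnot4) CG dinucleotides and had a GC content from 57.5% (Jun) to 74.2% (Cnot4). In Hspa5, which encodes the endoplasmic reticulum chaperone BiP, the window held a GC box, a CCAAT box on each strand and an AP-1 word that overlaps the second CCAAT box. Eif5 held none of the words searched. The summit windows of Gm39397, 2900027M19Rik and Dnah14 held no CG dinucleotide, and Rab3gap2 held 2, each inside a repeated E-box. Tandem repetition is visible in these windows by eye, with a GT run in Gm39397 and repeated units in the others.

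Depth and background differed among the libraries, and this bears on every count below. The lists held 30062 to 110724 peaks. The reads expected by chance under a summit, recovered from the deposited fold enrichments and p-values, ranged from 0.713 to 1.25 in the 5 selecting libraries and from 0.799 to 1.42 in the 7 others, and a region needed 3 to 5 reads to be listed. These ranges overlap, yet 17.9% to 46.4% of the peaks passed q of 0.05 in the selecting libraries and 7.35% to 24.7% in the others. Peaks on the Y chromosome numbered 22 to 36 in the 4 libraries with replicate number 1 and 854 to 1148 in the other 8, of which only vehicle replicate 3 was a selecting library. The labels name no batch, and the part of this difference in the results was not tested.

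The reproducible promoter regions were compact and sat on the transcript start. Their median width was 804.5 bp, with a middle 50% from 680 to 953 bp, and the midpoint lay within 100 bp of a start in 59.7% and within 500 bp in 89.8%. A protein-coding start was within 3000 bp for 7256 regions (93.0%), and for these the summit of the strongest peak lay a median of 61 bp upstream of the start, with a middle 50% from -129 to 4 bp. The summit was upstream in 74.1% and within the 200 bp before the start in 60.1%. Regions with no protein-coding start numbered 542, among them 196 nearest to a lincRNA, 68 to a processed pseudogene, 56 to an antisense RNA, 23 to a snRNA and 23 to a miRNA. The midpoint fell in an annotated exon in 50.3% of regions, in a gene outside its exons in 19.2% and outside genes in 30.5%. Of 7438 nearest genes, 7106 had 1 region and 332 had 2 or more. Head-to-head promoters, with starts of genes on opposite strands within 1000 bp, made up 20.8%.

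**Figure D1:**
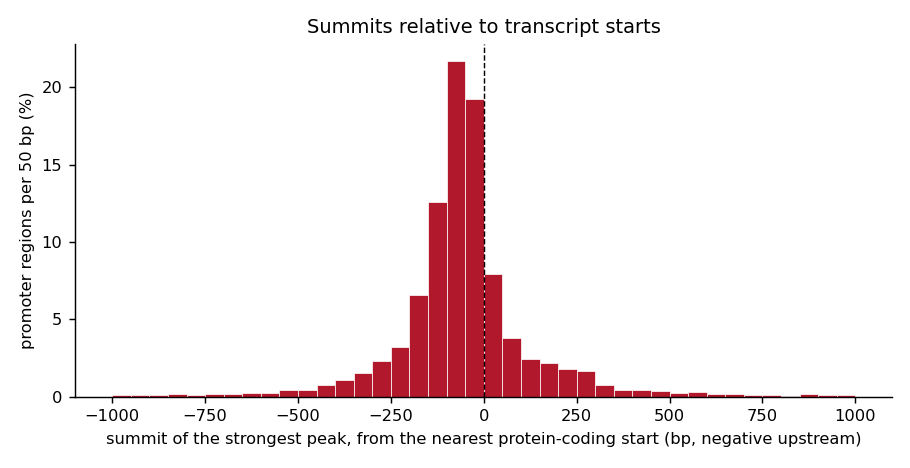
Share of the 7256 promoter regions with a protein-coding start in each 50 bp step (vertical axis, %) by the distance of the strongest summit from that start (horizontal axis, bp, negative upstream; the dashed line is the start). The distribution peaks just upstream of the start, with 60.1% of summits in the 200 bp before it.

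CpG-rich DNA, here 500 bp around the midpoint with a GC content of at least 50% and a CpG observed-to-expected ratio of at least 0.6, underlay 6323 regions (81.1%). The share was 3.91% in reproducible distal regions within genes, 10.3% in intergenic ones and 48.0% at the starts of all 21755 protein-coding genes. Seen from the genes, 61.9% of CpG-rich starts and 14.7% of other starts had a reproducible region within 3000 bp. The median GC content was 64.2% in promoter regions and 50.4% in distal ones, and the median CpG ratio was 0.805 and 0.231. Repeat-masked bases made up at least 50% of 43 promoter regions (0.551%) and of 188 distal regions (6.48%). Of the 591 regions removed because every list had a peak there, 277 (46.9%) were so masked, and 163 lay at promoters.

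In the 5 selecting libraries the median fold enrichment, the reads at a summit over the local background with 1 added to each, was 6.48 over the promoter regions, 4.96 over distal regions within genes and 5.09 over intergenic ones. The middle 50% of the promoter regions ran from 4.97 to 8.87 and the extremes from 1.38 to 21.5. The 5 highest medians were at Ptpn2 (21.5), a phosphatase of JAK-STAT signaling, Spata5 (20.4), an AAA ATPase, Ccnl2 (18.7), a cyclin that acts in splicing, Chchd7 (18.7), a mitochondrial protein, and Ppp1cb (18.4), a catalytic subunit of protein phosphatase 1. All 5 are broadly used genes with CpG-rich starts. CpG-rich regions had a median of 6.91 and the others 5.13, and head-to-head promoters had 7.46 against 6.25 for the rest. Fold enrichments of the regions ranked alike among the selecting libraries, with Spearman's rho across regions from 0.673 to 0.832 in the 10 pairs. Vehicle replicate 1 took part in the 4 lowest of these, at 0.673 to 0.691. The regions are not independent replicates, and the correlation is a description of libraries that chose them.

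Core promoter words were common near the summits. A window of 100 bp on each side of the summit, searched on both strands, held the GC box of SP and KLF factors (GGGCGG) in 61.6% of promoter regions, 40.3% of windows of the same length at the 21755 protein-coding starts and 11.9% of distal summits. Windows at starts were centred on the start and not on a summit, so shares at regions and at starts differ in centre too. The CCAAT box of NFY (ACCAAT or GCCAAT) was present in 27.4%, 19.1% and 11.7% in the same order. Shares were 6.19%, 4.37% and 0.483% for the ETS word CCGGAAGT, 4.78%, 2.71% and 1.07% for the NRF1 word GCATGCGC, and 8.63%, 5.7% and 5.11% for the E-box CACGTG of USF and MYC. The CRE word TGACGTCA of CREB and ATF was found in 3.05% of promoter regions and 2.03% of starts, the YY1 word AAGATGGC in 3.3% and 2.79%, the HIF word TACGTG in 3.09% and 1.97%, and the ZNF143 word CTACAATTC in 0.372% and 0.326%. Regions with a CCAAT box had a median fold enrichment of 7.52, against 6.19 for those without, and regions with a GC box had 7.0 against 5.77.

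Other words were rarer than at distal sites. AP-1 words (TGACTCA or TGAGTCA) were found in 3.71% of promoter regions, 2.81% of all starts and 15.4% of distal summits, and the TEAD word ACATTCC in 1.63%, 2.26% and 5.31%. The word TATAAA of the TATA box, which marks a class of focused and often regulated promoters, was found in 2.44%, 8.12% and 5.97% in the same order. A CArG box, the site of serum response factor, was present in 70 regions (0.898%), and an estrogen response element in 1 region (0.0128%), where all starts gave 0.795% and 0.023% and distal summits 1.28% and 0.103%. With every window centred on a start, these words were rarer at starts with a reproducible region than at starts without. Shares were 1.85% and 3.39% for AP-1, 1.08% and 2.96% for TEAD and 3.19% and 11.1% for TATAAA. They were 0.628% and 0.895% for the CArG box and 0.0% and 0.0367% for the estrogen response element. The words of NFY, AP-1 and the E-box can overlap one another in a window, and a match describes letters, not binding.

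Within 3000 bp of a start, 8125 of 21755 protein-coding genes (37.3%) had a reproducible promoter region, and the gene lists below are read against that share. Lists were assembled with earlier results of these data known, and their counts in the selecting libraries carry no test. Chaperones were the most complete group: all 20 heat shock and chaperone genes had a region, with a median fold enrichment of 9.99. Hspa5 was at 10.8, 12.5, 15.9, 12.2 and 13 in vehicle replicates 1 and 3 and replicate 1 of E2, E2 plus fulvestrant and fulvestrant. In the other libraries it was at 2.8 in E2 replicate 2, 6.47 in E2 plus fulvestrant replicate 3, 9.84 in fulvestrant replicate 2 and 4.51 in fulvestrant replicate 3, with no peak in the remaining 3. The promoter was thus listed in 9 of 12 libraries, and the 4 remaining ones that listed it had lower values than any of the selecting 5. Hspa8, the constitutive cytosolic HSP70, reached a median of 14.9 and Hsp90b1, the endoplasmic reticulum member of the HSP90 family, 13.6.

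Genes of protein synthesis and of cell growth followed. Ribosomal protein genes had a region at 71 of 83 (85.5%), translation initiation factors at 38 of 54, the proteasome at 27 of 39, oxidative phosphorylation at 56 of 80, basal transcription factors and RNA polymerase II subunits at 20 of 24, cell cycle genes at 26 of 32 and replication-dependent histone genes at 55 of 67. Eif5, the factor that triggers GTP hydrolysis in the initiation complex, stood at 14.4, 18.1, 20.1, 17.9 and 19.0 in the selecting libraries, at 13 in fulvestrant replicate 2, at 3.27 to 5.37 in E2 replicate 2, E2 plus fulvestrant replicate 3 and fulvestrant replicate 3, and had no peak in the other 3. Rps29, of the small ribosomal subunit, had a median of 16.2 and was listed in 4 of the 7 remaining libraries, with 11.9 in fulvestrant replicate 2. Cdk4, the kinase that starts the cell cycle in G1, had a median of 13.6 and a q-value of 0.05 or less in 3 of the 7. Histone genes stood lower, at a median of 5.31, and several share a region: Hist1h2ac with Hist1h2bc and Hist2h2aa2 with Hist2h3c2. The promoters of Mcm4, Hsp90b1, Polr2l, Gtf2e1, Rps25 and Eif2a lay nearest to the start of a neighbouring gene, so their regions cannot be assigned to 1 gene.

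Immediate early genes, which are induced within minutes by serum and stress, had a region at 20 of 22, with Fosl1 and Egr2 as the exceptions, and a median fold enrichment of 5.71. Jun, an AP-1 subunit, had a median of 9.74 and was listed in E2 replicate 2 at 2.29, E2 plus fulvestrant replicates 2 and 3 at 2.7 and 3.43, and fulvestrant replicate 2 at 6.82, and in no other remaining library. Atf3, a stress-induced repressor of the same family, had a median of 12 and Klf6, a zinc finger factor, 11.7. Egr1 was lower, at a median of 4.87, and was listed in 4 of the remaining 7 libraries, including 2.29 in E2 replicate 2 and 3.12 in fulvestrant replicate 3.

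The fibroblast label fitted the markers in part. Of 30 fibroblast and mesenchyme genes, 18 had a region (60.0%), with medians from 3.26 to 8.19. Vim, the intermediate filament of mesenchymal cells, was at 5.5, 7.18, 11.1, 10.3 and 8.19 in the selecting libraries, at 2.22 in vehicle replicate 2, 3.27 and 3.03 in E2 replicates 2 and 3, 3.46 in E2 plus fulvestrant replicate 3 and 6.31 in fulvestrant replicate 2, and had no peak in E2 plus fulvestrant replicate 2 or fulvestrant replicate 3. It was listed in 10 of 12 libraries, the most of any gene of this list. Pdgfra, which defines these fibroblasts, stood at 3.45, 3.48, 3.35, 4.08 and 3.81 and, outside the selecting libraries, at 2.78 in vehicle replicate 2 and 2.8 in E2 replicate 2. Its values were near the lower end of the list. Col1a2, a chain of type I collagen, had a median of 8.08 and Twist1, a mesenchymal transcription factor, 7.14, and no remaining library called either. Fn1, fibronectin, had a median of 7.88, Col5a1 of 7.6 and Lox, which crosslinks collagen, of 5.92.

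The 12 fibroblast genes without a region were not alike. Thy1, Loxl1, Fbn1 and Dpt had a peak with q of 0.05 or less near a start in 3 of the 5 selecting libraries, 1 short of the rule. Col3a1, Postn, Twist2 and Prrx1 had one in 2, Col5a2 and Lum in 1, and Tcf21 and Ly6a in none. Skeletal muscle genes had a region at 0 of 16. Of the myogenic regulators, Myod1, Myf5, Myf6 and Pax7 had no such peak in any of the 12 libraries and Myog had one in 1 selecting library. Among genes of mature muscle, Tnnt3, a troponin, had one in 3 of the selecting 5, Ckm, the muscle creatine kinase, in 2 of them and in 1 of the other 7, Myh4 in 1 selecting library and Myh2 in 1 of the others. Endothelial (0 of 10), blood and immune (0 of 10), Schwann and neural (0 of 8) and epithelial genes (0 of 8) had none, and adipocyte genes had 1 of 8, at Cebpa, a transcription factor that other cell types use too. Laptm5, of the immune list, had peaks with q of 0.05 or less in 5 of the 7 remaining libraries and 1 of the selecting 5. Olfactory receptors had a region at 3 of 1092, where Olfr214 shares its region with Gm5580, and keratins at 1 of 49, Krt80.

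**Figure D2:**
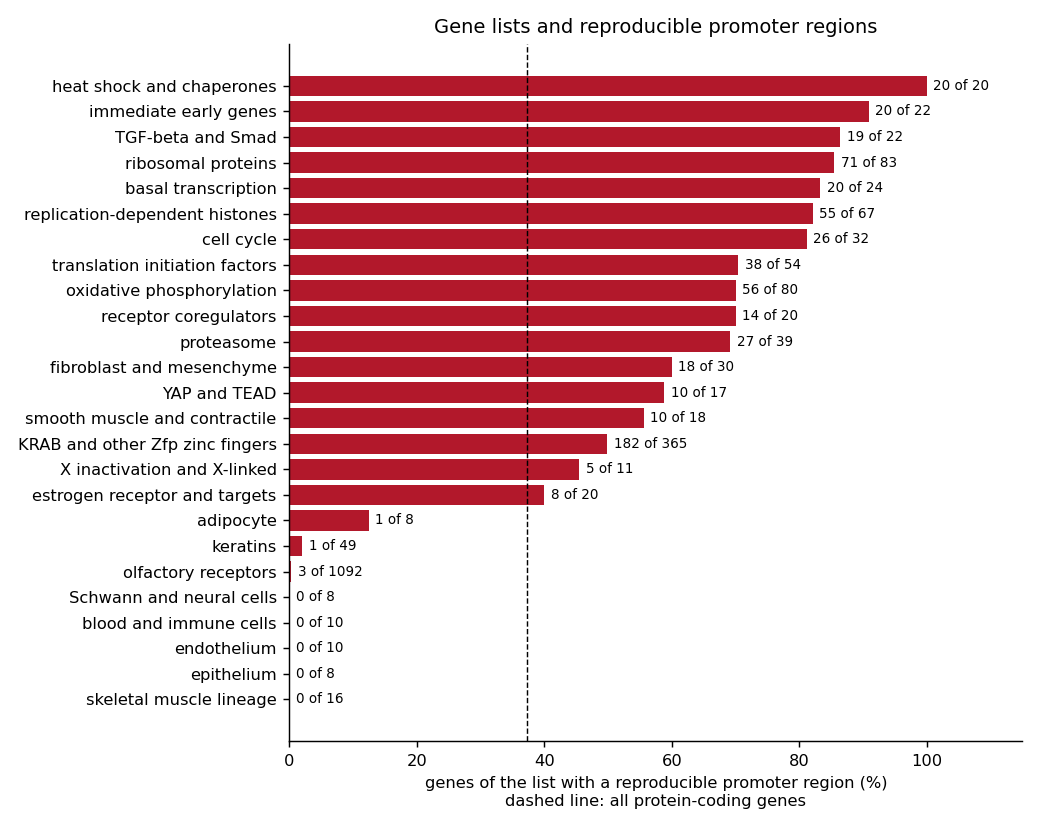
Share of the genes of 25 lists with a reproducible promoter region within 3000 bp of a start (horizontal axis, %), with counts beside the bars and the share of all protein-coding genes, 37.3%, as a dashed line. Chaperones (20 of 20) stand at the top, and genes of muscle, endothelium, blood, nerve and epithelium have none.

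Contractile and signaling genes of the hernia context were mixed. Of 18 smooth muscle and contractile genes, 10 had a region. These were led by Myh9, nonmuscle myosin (median 15.3), Vcl, vinculin of focal adhesions (14.3), and Zyx, zyxin (11), while Acta2, Tagln, Cnn1 and Myh11, which mark smooth muscle and myofibroblasts, had none. Of 22 genes of TGF-β signaling, 19 had one: the receptors Tgfbr1 (9.19) and Tgfbr3 (9.42), the transducers Smad2 (10.0) and Smad3 (10.6), and their repressor Ski (12.1) were examples, and the ligands Tgfb1 and Tgfb2 and the latency protein Ltbp2 were the exceptions. YAP and TEAD genes had 10 of 17, with Stk3, a Hippo kinase, at a median of 15.9 and the target Ccn2, connective tissue growth factor, at 4.09, 9.89, 3.55, 4.78 and 4.04 in the selecting libraries. Ccn2 was highest in vehicle replicate 3. Of 365 Zfp zinc finger genes, 182 had a region.

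Genes of the estrogen receptor and its targets had a region at 8 of 20, a share near the 37.3% of all genes. Wee1, a kinase that restrains CDK1, had the highest median at 11, with 6.82, 10.6, 11.1, 11 and 11.5 in the selecting libraries, 4.45 in E2 plus fulvestrant replicate 3 and 7.21 in fulvestrant replicate 2. Ccn3, a matricellular protein, had 6.94, 7.26, 4.27 and 6.78 in the 4 selecting libraries that called it and 3.27 in E2 replicate 2. Xbp1, of the unfolded protein response, had a median of 6.38, Cdc7, a replication kinase, 6.25, and Ctsd, a lysosomal protease, 5.63. None of these E2 values stood outside the range of the other selecting libraries except that of Ccn3, whose 7.26 exceeded the 6.94 of vehicle replicate 3. Esr1 itself had no region and no peak with q of 0.05 or less in the 5 selecting libraries, and had one in 3 of the 7 others. Esr2 had such peaks in 4 of the selecting 5, which did not merge into a region meeting the rule. Pgr had none in any library and Greb1 had one in E2 replicate 1. Receptor coregulators had 14 of 20, led by Prmt1 (13.6), Carm1 (13) and Smarca4 (13), and Crebbp (9.63) was called in no remaining library.

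Calling fell sharply outside the selecting libraries. A deposited peak of any strength overlapped 90.1% of the promoter regions in vehicle replicate 1, 98.8% in vehicle replicate 3, and 99.7%, 99.7% and 99.8% in replicate 1 of E2, E2 plus fulvestrant and fulvestrant. The shares were 9.58% in vehicle replicate 2, 7.16% and 3.39% in E2 replicates 2 and 3, 4.12% and 10.9% in E2 plus fulvestrant replicates 2 and 3, and 44.1% and 11.1% in fulvestrant replicates 2 and 3. Fulvestrant replicate 2 stood alone among the 7. With a q-value of 0.05 or less, it kept 28.0% and the other 6 kept 0.526% to 3.13%. Protein-coding starts without a reproducible region were called at 11.5% to 20.3% in the selecting libraries and at 1.7% to 6.42% in the others, and fulvestrant replicate 2, at 2.13%, was not high there. Where a region was listed, the median fold enrichment was 4.96 to 7.23 in the selecting libraries and 3.15 to 4.17 in the others.

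**Figure D3:**
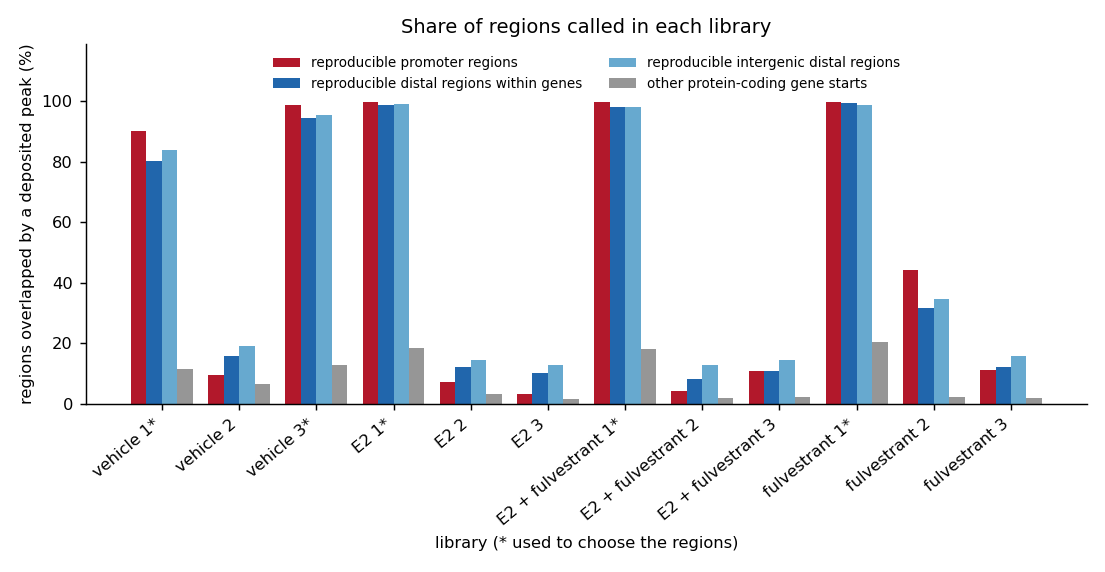
Share of regions overlapped by a deposited peak (vertical axis, %) in each of the 12 libraries, for the 7798 reproducible promoter regions, 1382 distal regions within genes, 1517 intergenic distal regions and the other protein-coding gene starts; asterisks mark the 5 selecting libraries. Promoter regions were called at 90.1% to 99.8% in those 5 and at 3.39% to 44.1% in the other 7.

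Most regions were listed in 5 or 6 libraries. Of the 7798, 649 were called in 4 of the 12 libraries, 2965 in 5, 2581 in 6, 1000 in 7, 362 in 8, 144 in 9, 57 in 10 and 40 in 11. None of the 7 remaining libraries called 3427 (43.9%), and this rose to 5383 (69.0%) without fulvestrant replicate 2. The strongest of the regions not called were at Cnot4, a ubiquitin ligase of the CCR4-NOT complex (median 16.1), Dcaf1, a substrate receptor of a cullin ligase (15.8), Rnf2, a Polycomb ubiquitin ligase (15.4), Ccdc82 (13.7) and the noncoding 5730405O15Rik (12.9). Cnot4 had 8.67, 14.2, 16.4, 18.1 and 16.1 in the selecting libraries, and its sequence, with 3 GC boxes and an NRF1 word, is shown above. Within the selecting libraries, 5332 regions had a q-value of 0.05 or less in all 5 and 2466 in 4. Vehicle replicate 1 lacked it in 2017 (25.9%), more than any other.

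How calling varied with the strength of a region differed among the remaining libraries. From the weakest to the strongest quintile of regions, by median fold enrichment in the selecting libraries (4.21 to 11.4), the share called rose from 17.7% to 88.8% in fulvestrant replicate 2, from 9.09% to 26.4% in fulvestrant replicate 3 and from 6.8% to 25.3% in E2 plus fulvestrant replicate 3. In vehicle replicate 2 it went from 12.1% to 10.4%, in E2 replicate 2 from 9.73% to 8.01%, in E2 replicate 3 from 6.8% to 3.85% and in E2 plus fulvestrant replicate 2 from 6.68% to 3.59%. In these 4 the fall lay between the weakest and the second quintile, which stood at 7.63% in vehicle replicate 2, 5.37% in E2 replicate 2, 2.01% in E2 replicate 3 and 2.85% in E2 plus fulvestrant replicate 2. The strongest quintile stood above the second in each. Fulvestrant replicate 3 and E2 plus fulvestrant replicate 3 also fell at that step, to 4.14% and 4.72%. Fold enrichment, across the regions each library called, had a Spearman's rho with the median of the selecting libraries of 0.624 in fulvestrant replicate 2, 0.314 in fulvestrant replicate 3, 0.29 in E2 plus fulvestrant replicate 3, and from -0.172 to -0.0424 in the other 4. Over the 7 libraries, the upper and the lower 3899 regions differed by 8.86 percentage points in the share called, which did not pass an exact two-sided sign-flip permutation test over the libraries (p = 0.234), and 4 of 7 libraries were higher in the stronger regions. The 7 differences ran from -0.872 to 45.0 points, and fulvestrant replicate 2 set the highest: without it the mean was 2.84.

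**Figure D4:**
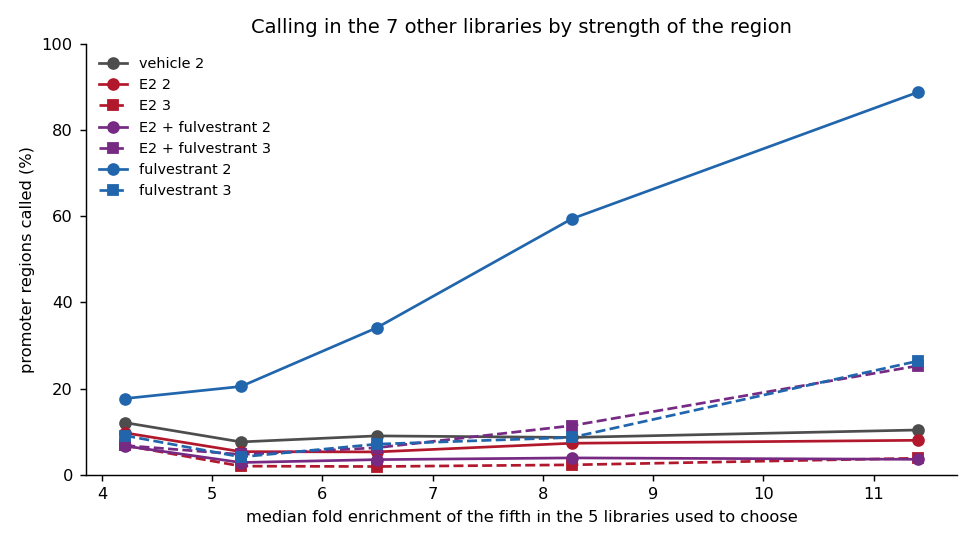
Share of promoter regions called (vertical axis, %) in each of the 7 remaining libraries, against the median fold enrichment of each quintile of regions in the 5 selecting libraries (horizontal axis). Fulvestrant replicate 2 rises from 17.7% to 88.8%. Fulvestrant replicate 3 and E2 plus fulvestrant replicate 3 drop after the weakest quintile and end higher than they start, and the other 4 drop after it and end lower.

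Whether E2 or fulvestrant changed how many of these promoters were accessible was tested on the 7 remaining libraries. The share called was 9.58% in the vehicle library, 5.28% ± 2.67 (SD, n = 2) after E2, 7.51% ± 4.79 (SD, n = 2) after the combination and 27.6% ± 23.3 (SD, n = 2) after fulvestrant. The E2 and E2 plus fulvestrant libraries overlapped. The difference between them was -2.24 points by an exact two-sided permutation test over libraries (p = 0.667, adjusted over 5 tests 0.667), and it turned to 1.15 without E2 plus fulvestrant replicate 3. Fulvestrant exceeded E2 plus fulvestrant by 20.1 points (exact p = 0.333, adjusted 0.556) and E2 by 22.3 points (E2 minus fulvestrant -22.3, exact p = 0.333, adjusted 0.556). With 2 libraries against 2, 0.333 is the smallest p that can be reached, so none of these could pass 0.05. Both differences rested on fulvestrant replicate 2 and were 3.58 and -5.82 points without it.

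Pooling treatments gave more libraries a side. The 4 libraries with E2 had 15.2 points fewer regions called than the 3 without (-15.2 points, exact permutation p = 0.0571, adjusted 0.286), and the 3 without fulvestrant differed from the 4 with it by -10.85 points (exact permutation p = 0.457, adjusted 0.571). The smallest p that this design allows is 0.0286. Without fulvestrant replicate 2 these were -3.94 and -2.00 points. The gap in percentage points between promoter and distal regions, which can still grow with the overall share called, was compared in the same way. It differed by -3.09 points between E2 and E2 plus fulvestrant (exact permutation p = 0.667), by 8.10 between fulvestrant and E2 plus fulvestrant (exact permutation p = 0.667), by -11.2 between E2 and fulvestrant (exact permutation p = 0.333), by -7.36 between libraries without and with fulvestrant (exact permutation p = 0.114) and by -5.69 between libraries with and without E2 (exact permutation p = 0.343). The adjusted p-values of these 5 tests were 0.571 to 0.667. Without fulvestrant replicate 2 the last 4 became 1.16, -4.25, -3.70 and -0.244 points. A difference between treatments was not detectable in these lists, and the absence of a peak does not show that a promoter was closed.

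Regions called in both remaining libraries of 1 treatment and in neither of another were few for E2. They numbered 25 (0.321%) for E2 and not E2 plus fulvestrant, where 0.379% of all 431930 merged regions had that pattern, and 37 (0.474%) in the opposite direction, with 0.247% of all regions. For E2 and not fulvestrant there were 14 (0.18%), beside 0.341% of all, and for E2 plus fulvestrant and not fulvestrant 13 (0.167%), beside 0.254%. The numbers were larger for fulvestrant: 331 regions (4.24%) against E2 plus fulvestrant, where all regions gave 0.393%, and 498 (6.39%) against E2, where all regions gave 0.384%. Fulvestrant replicate 2, which called 44.1% of the promoter regions, takes part in both. Without it, the single library fulvestrant replicate 3 gave 492 and 647, a looser pattern for which the share of all regions is not given here.

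The 3 regions at the head of each pattern are named as examples. Those of the fulvestrant patterns were Tedc1, a tubulin-complex protein (10.9 in fulvestrant replicate 2 and 4.87 in replicate 3, with no peak in either E2 plus fulvestrant library), Kank3 (5.34 and 5.15), Tef, a PAR bZIP transcription factor (7.85 and 5.04), and, against E2, Sf1, splicing factor 1 (9.19 and 7.44), Khsrp, an RNA-binding regulator of splicing and decay (10.1 and 6.69), and Camta1 (10.5 and 6.77). All but Tef were CpG-rich. All of these were at 8.64 or more in every selecting library, vehicle and E2 included. The E2 pattern against E2 plus fulvestrant was led by Speer4f1 (4.67 and 4.72), of a multicopy family, and the pseudogenes Gm17223 (5.13 and 4.04) and Gm20946 (3.58 and 2.86), none of them CpG-rich. Reads of such families can be divided among near-identical copies, so these 3 values are uncertain. In the opposite direction stood E330021D16Rik (3.44 and 5.46), Atf4, the transcription factor of the integrated stress response (3.77 and 3.36), and Eif4a1, the RNA helicase of translation initiation (3.33 and 3.57), and the latter pair were CpG-rich. Eif4a1 was also at 7.48 and 6.39 in the fulvestrant libraries and at 12.8 in E2 replicate 1.

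Against fulvestrant, the E2 pattern was led by Gm8038 (4.35 and 5.6), Cdadc1, which holds a cytidine deaminase domain (4.67 and 3.54), and Gm18627 (4.07 and 3.21), and the E2 plus fulvestrant pattern by Gm8038 (4.0 and 4.2), Snhg14, a host of small nucleolar RNAs (3.52 and 4.05), and Gm13243 (3.16 and 3.5). With the replicate-1 libraries added, regions called in all 3 libraries of a treatment numbered 658 for vehicle (8.44%), 85 for E2 (1.09%), 96 for E2 plus fulvestrant (1.23%) and 676 for fulvestrant (8.67%). Vehicle owes 2 of its 3 libraries to the selection and the other treatments 1, so these counts are no comparison of treatments. The share of all merged regions called in this way is not given here.

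Promoter regions were not called more often than distal ones in the remaining libraries. Calls there also shaped both classes, since the rule removed 591 regions with a peak in all 12 lists, 163 of them at promoters. With those put back, the mean differences were -9.59 points from distal regions within genes and -14.7 from intergenic ones (each exact sign-flip permutation p = 0.0312, adjusted 0.0312). Distal regions within genes were called at 8.18% to 31.7% and intergenic ones at 13% to 34.7%. The mean difference over the 7 libraries was -1.51 points from the former (exact sign-flip permutation p = 0.625, adjusted over 2 tests 0.625, higher in 2 of 7) and -4.90 from the latter (exact sign-flip permutation p = 0.109, adjusted 0.219, higher in 1 of 7). The highest differences were in fulvestrant replicate 2, where promoters exceeded both, by 12.4 and 9.43 points. Without it the means were -3.83 points (exact permutation p = 0.0625, adjusted 0.0625) and -7.29 points (exact permutation p = 0.0312, adjusted 0.0625). In the selecting libraries all 3 classes were called at 80.2% to 99.8%, as the rule requires.

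Classes of promoter were compared by the same sign-flip test, adjusted over 4 tests. CpG-rich regions differed from others by -1.39 points (exact permutation p = 0.422, adjusted 0.422), regions within 500 bp of a start from farther ones by -2.53 (exact permutation p = 0.297, adjusted 0.396), and head-to-head promoters from the rest by 2.13 (exact permutation p = 0.203, adjusted 0.396). CpG-rich regions and regions near a start were lower in 6 of 7 libraries and higher in fulvestrant replicate 2, by 7.98 and 9.06 points. Without that library the differences were -2.95 and -4.47 points, each with an adjusted p of 0.0417 by the exact permutation test over 6 libraries. In that library 45.6% of CpG-rich and 37.6% of other regions were called, and in vehicle replicate 2 8.75% and 13.2%. The removal of regions with a peak in every list shaped these classes too. With those regions put back, CpG-rich regions differed by -8.84 points and regions near a start by -11.3 (each exact permutation p = 0.0312, adjusted 0.0417). Head-to-head promoters then differed by 0.0112 points.

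The X chromosome held few reproducible promoters, and they were called less. The mice of the study were male by its methods, and the part of X copy number in these values was not tested. It carried 139 of the 7798 regions (1.78%), and 148 of its 948 protein-coding genes (15.6%) had one, where autosomal genes had 38.3%, from 31.4% on chromosome 14 to 44.4% on chromosome 8. In the remaining libraries, peaks overlapped 1 of 139 in vehicle replicate 2, 1 and 0 in E2 replicates 2 and 3, 0 and 4 in E2 plus fulvestrant replicates 2 and 3, and 34 (24.5%) and 2 in fulvestrant replicates 2 and 3. The share was lower than on autosomes in 7 of 7 libraries, by a mean of 8.75 points (X minus autosomes -8.75, range -20.0 to -3.45, exact sign-flip permutation p = 0.0156, the smallest that 7 libraries allow, adjusted 0.0625). It missed 0.05 after adjustment over the 4 tests and passed it without fulvestrant replicate 2, at -6.87 points and 0.0417.

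The X regions themselves were not weak in 4 of the 5 selecting libraries. Their median fold enrichment was 7.43 in vehicle replicate 3, 7.1 in E2 replicate 1, 7.6 in E2 plus fulvestrant replicate 1 and 7.68 in fulvestrant replicate 1, above the autosomal 6.85, 6.64, 6.88 and 7.21, and all 139 were called in each. In vehicle replicate 1 it was 4.67 against 5.0, 116 were called, and 61 (43.9%) lacked a q-value of 0.05 or less, compared with 25.9% of all regions. Of 11 X-linked and X inactivation genes, 5 had a region. Kdm6a, a demethylase of histone H3 lysine 27, stood at 8.05, 11.3, 14.0, 14.3 and 12 and at 7.69 in fulvestrant replicate 2. Ddx3x, an RNA helicase, stood at 5.26, 6.94, 7.99, 5.22 and 7.95, with 3.59 in fulvestrant replicate 2. Ftx, a noncoding gene beside Xist, Kdm5c, a demethylase of histone H3 lysine 4, and Pbdc1 were not listed in vehicle replicate 1 or any remaining library. Xist had no peak near its start in any of the 12. The number of Y chromosome peaks, given above, also splits the libraries, though vehicle replicate 3 falls with the remaining 7 in it and with the selecting libraries here, and its part was not tested.

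Regions with a motif word were compared with those without in the 7 libraries, with adjustment over 14 motifs, and 0 passed 0.05. In 4 the unadjusted p was the smallest possible. Regions with the NRF1 word were called less by 2.13 points (NRF1 -2.13), with the ETS word by 1.37 (ETS -1.37) and with the YY1 word by 2.37 (YY1 -2.37), lower in 7 of 7 libraries each, and regions with a CArG box were called more, by 3.25 points, in 7 of 7 (each exact sign-flip permutation p = 0.0156, adjusted 0.0547). The CArG difference rests on 70 regions. The CCAAT box gave 5.18 points (exact permutation p = 0.172, adjusted 0.383), from -1.19 to 17.9, with 5 of 7 libraries higher, and the GC box -1.36 (exact permutation p = 0.266, adjusted 0.394).

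A small class of regions stood apart, those that most of the remaining libraries called. At least 5 of the 7 called 114 regions (1.46%). Of these 25.4% were CpG-rich, 46.5% lay within 500 bp of a start, 39.5% had a protein-coding start within 3000 bp and 21.9% were at least 50% repeat-masked. Among the other 7684 the shares were 81.9%, 90.4%, 93.8% and 0.234%. Their median fold enrichment in the selecting libraries was 4.09, against 6.52. The CpG-rich share was 78.7% to 87.5% for regions that 0 to 4 of the 7 libraries called, 38.5% for 5, 9.3% for 6 and 0% for the 6 regions called by all 7. These shares were not tested, since the classes were made after the values were seen.

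**Figure D5:**
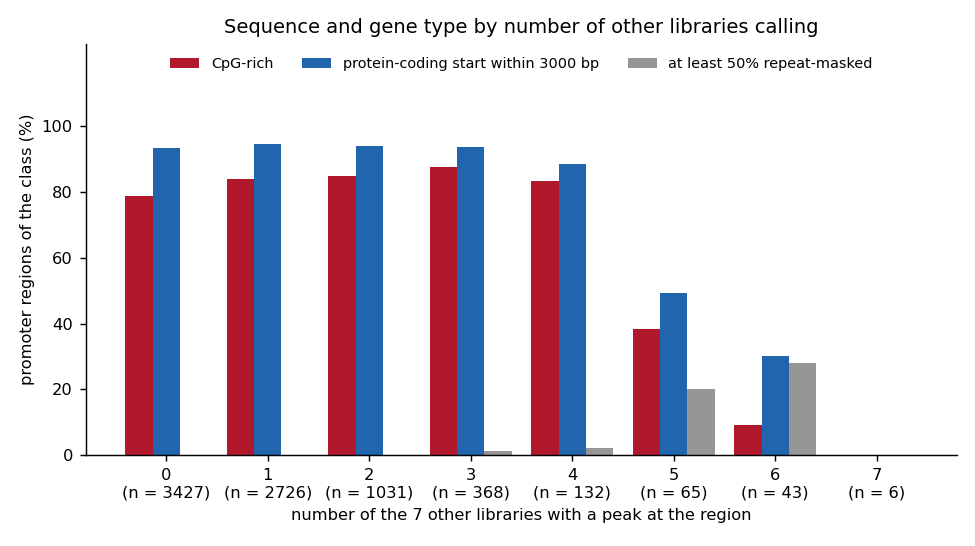
Share of promoter regions (vertical axis, %) that were CpG-rich, had a protein-coding start within 3000 bp or were at least 50% repeat-masked, by the number of the 7 libraries not used for selection that called them (horizontal axis, with the number of regions). CpG-rich regions make up 78.7% to 87.5% up to 4 libraries and 38.5%, 9.3% and 0% at 5, 6 and 7.

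The regions named from this class were chosen for a q-value of 0.05 or less in 6 or 7 of the remaining libraries, so their values there are a description. Gm39397, a lincRNA, had a q-value of 0.05 or less in all 7 remaining libraries, at 5.77 in vehicle replicate 2, 5.08 and 6.72 in E2 replicates 2 and 3, 4.91 and 4.92 in E2 plus fulvestrant, and 4.07 and 6.34 in fulvestrant. In the selecting libraries it stood at 5.19, 4.04, 5.6 and 3.68, with no peak in vehicle replicate 1. The 2 sets of libraries overlap. 2900027M19Rik, a transcript of the TEC class that awaits experimental proof, was called in all 7 at 4.13 to 8.58 and in 4 of the selecting 5 at 4.04 to 6.48. Rab3gap2, a regulator of the Rab3 and Rab18 GTPases, stood at 2.78 to 4.47 in the selecting libraries and at 5.08 to 7.72 in the 6 of 7 remaining ones that called it. Its summit lay in an intron 120 bp from the start. Dnah14, an axonemal dynein heavy chain, was called in 6 at 4.39 to 6.76. Gm10717 and Gm11168, at the start of chromosome 9 (chr9:3028454-3028720 and chr9:3003292-3003679), lay between 1.46 and 1.81 in every library that listed them and yet had a q-value of 0.05 or less in 6 of the 7. Gm13340, a pseudogene (chr2:22589500-22589994), was at 8.29 to 9.57 in the selecting libraries and 3.89 to 6.79 in the 6 others that called it. How many copies these sequences have in the genome was not analysed here, and how reads matching several places were treated is not given in the sources used here.

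The limits of the rule fell within a continuum. Just inside 3000 bp were Gm48276 (midpoint 2987 bp away, median fold enrichment 6.6) and Gm16170 (2977 bp, 4.8), and just outside were regions near Gm15441 (3007 bp, 4.66) and Coro7 (3008 bp, 5.16). The member with the lowest fourth-highest −log10 q was at Uap1l1 (1.3), and the nearest region below the limit was at Alkbh2 (1.298). A further 1637 promoter regions passed q of 0.05 in exactly 3 of the 5 selecting libraries and did not enter.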

How the data were processed

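ATAC-seq peak lists of 12 libraries, 3 for each of 4 treatments, were analysed, with groups and replicate numbers taken from the sample labels. Per the study's methods and the submitters' processing notes, the authors trimmed reads with Trimmomatic 0.39, aligned them to mm10 with Bowtie2, removed duplicates with Picard 2.21.4 and called peaks in each library separately with MACS2, without pooling. Each deposited list gives, per peak, a fold enrichment (the authors' ratio of pileup to local background, each with 1 added), a deposited −log10 p-value and −log10 q-value, and a deposited integer score, which was not used. Peaks in the deposited lists reach p-values of up to 0.01, so weak peaks are included. No read totals are given. Relative depth, as the background under a summit, was recovered from fold enrichment and −log10 p, with a whole-number pileup in 99.95% to 99.99% of peaks (tolerance 0.002). Longer lists did not go with a higher background. The lowest, 0.713 and 0.799 in vehicle replicates 1 and 2, went with 77390 and 110724 peaks. The highest, 1.42 in fulvestrant replicate 3, went with the fewest, 30062. The model for read counts that the study fitted, with its removal of batch effects by limma, could not be run on peak lists.

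Any deposited peak that overlapped a region counted as a call, and calls with q of 0.05 or less are given beside. A call's fold enrichment is that of the highest peak in the region. Promoters were assigned from GENCODE M21, and sequences and masked bases from GRCm38. Shares of regions called were compared between treatments by exact two-sided permutation tests over libraries, and between classes of regions by exact sign-flip permutation tests over libraries, with Benjamini-Hochberg adjustment within families of 5, 5, 2, 4 and 14 tests. Regions are not replicates and entered no test as such. Among the libraries numbered 2 and 3, the number did not pair libraries across treatments, and those numbered 1, all selecting libraries, entered no treatment test. Genes were named by rule: up to 6 per list, by the number of the 7 remaining libraries calling them and then by fold enrichment, and the regions at the head of each pattern or limit. Col1a2, Twist1 and the upstream sequences of Hspa5, Eif5 and Jun were chosen after their values were seen. The members and lists were chosen with earlier results of these data known. The comparison of stronger with weaker regions and the classes by number of libraries were added after the data were seen. The building of regions, their calls, the recovery of pileups, the permutation and sign-flip tests and the search for a motif word were tested on simulated data, and the other statistics were not. Python 3.11.15, numpy 2.4.6, scipy 1.17.1, pandas 2.3.3 and matplotlib 3.10.9 were used.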

Additional observations from a re-analysis of the deposited data

How the results depend on the processing

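Of 388 alternative values, 331 kept their direction and their side of the threshold or stayed within the spread. The regions called in all 12 lists were also put back, the 163 at promoters (7961 promoter regions) and the distal ones alike. Promoter regions then differed by -9.59 points from distal regions within genes and by -14.7 from intergenic ones. The differences were -8.84 for CpG-rich regions, -11.3 for regions within 500 bp of a start and -9.18 for the X chromosome. Adjusted p ran from 0.0312 to 0.0417 by exact permutation. These differences grew by construction. Every library calls the regions put back, so the share called rose most in classes that gained many for their size. Requiring all 5 selecting libraries (5332 regions) turned the difference from distal regions within genes to 2.80 points (exact p = 0.328) and gave 10.7 for stronger regions (exact p = 0.0469). With starts within 1000 bp (7266 regions), head-to-head promoters gave 2.46, the X chromosome -8.50 and stronger regions 10.3 points, and with protein-coding starts alone (7078 regions) 2.79, -8.03 and 10.9 points (adjusted p 0.0312, 0.0312 and 0.0156 by exact permutation in both), while CpG-rich regions turned to 1.37 and regions near a start to 1.64 points, neither past 0.05. Under each of these 3 choices, and with a motif window of 50 bp, 1 of 14 motifs passed where 0 did. The cause was not tested.

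Without fulvestrant replicate 2, CpG-rich regions (-2.95), regions near a start (-4.47) and the X chromosome (-6.87) passed 0.05, and leaving out each library in turn gave ranges of -2.95 to -0.888, -4.47 to -1.77 and -9.63 to -6.87 points. The difference of E2 from E2 plus fulvestrant ran from -5.64 to 1.15 points. Regions called in both libraries of a treatment and in neither of the other ran, when a library was left out, from 42 to 389 for E2 and not E2 plus fulvestrant, 49 to 669 for the opposite, 28 to 200 for E2 and not fulvestrant, 553 to 3003 for the opposite, 365 to 2649 for fulvestrant and not E2 plus fulvestrant and 22 to 163 for the opposite, and regions called in no remaining library from 3474 to 5383. With q of 0.05 or less the 6 patterns held 13, 0, 6, 167, 110 and 2 regions, 298 in all, where any peak gave 918. Shares of all merged regions are given only for the patterns of both libraries with any peak, so these other counts have no such share beside them.

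With the replicate number as a block, E2 minus E2 plus fulvestrant stayed at -2.24 points (exact permutation p = 1), fulvestrant minus E2 plus fulvestrant at 20.1, and no call changed. Among libraries numbered 2 and 3, those sharing a number did not deviate together (correlations of 0.0219, 0.00687 and -0.0612 over 7798 regions), and number 1 was not included. Within number 2, E2 minus E2 plus fulvestrant was 3.04 points and fulvestrant minus E2 plus fulvestrant 39.98 in the share called, and 0.314 and 17.4 in the gap between promoter and distal regions. Within number 3 these were -7.53, 0.180, -6.49 and -1.24 points. The listing limit bears on all of these: a region under 3 to 5 reads is not listed.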
